A study of Homo sapiens with 10 samples.

Results

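Long intergenic non-coding RNAs, whose provisional gene symbols begin with LINC, were followed through oncogenic transformation by HRas and through brief activation of p53. A gene was taken as expressed when its row carried a LINC symbol and its raw counts summed to at least 40 over the 4 libraries of the first table or at least 60 over the 6 libraries of the second. This minimum was met by 177 of 882 LINC rows of the first, among 26256 rows in all. Another 401 LINC rows had 0 counts in every library and 304 had some counts below the minimum. It was met by 65 of 625 LINC rows of the second, among 55736 rows, with 354 at 0 and 206 below. Across both tables these were 191 genes, of which 51 were members in both. The members were thus chosen by the summed counts of the compared libraries, and their being expressed is not a finding.

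MCF10A, a nontransformed and immortalized line of human mammary epithelial cells, was compared with G12V cells, which are MCF10A cells that received HRas carrying the G12V mutation from a lentiviral vector with hygromycin resistance, together with a GFP vector. Each of these groups had 2 libraries and was harvested without a drug. In the second experiment, parental MCF10A cells were given 10 µM Nutlin-3a, which frees p53 from MDM2, or the solvent DMSO for 4 h, with 3 libraries each. The libraries are named as biological replicas, but nothing says whether they came from separate transductions or cultures, so the p-values measure the spread between these libraries only, and no source describes the G12V cells as a single clone.

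LINC is a naming class and not a family by sequence. Its members are transcripts from between protein-coding genes that are mostly spliced and polyadenylated, and some act in the nucleus on chromatin or in the cytoplasm on proteins and microRNAs, while for most no function is known. Many start from the same promoter region as a protein-coding gene on the other strand, and several transcripts first named LINC were later found to encode small proteins. Such RNAs are typically scarce and restricted to few cell types.

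Libraries held 21538593 to 23683975 counts in the first table and 15453226 to 17378734 in the second. HRAS rose in G12V cells from 69.3 ± 4.77 to 573 ± 82.0 CPM (SD, n = 2), where CPM are counts scaled to a library of equal size with TMM factors, and its log2 fold change was 3.05. Summed levels of 6 epithelial marker genes lay between 6320 and 7890 CPM in MCF10A libraries and between 944 and 1230 CPM in G12V libraries, with 6 of 6 lower by the test below, and 3 of 4 mesenchymal genes were higher. Defining markers of leukocytes and endothelium summed to at most 3.55 CPM in any of these libraries, and fibroblast markers to between 3.63 and 12 CPM. The part of the epithelial shift in the results below was not tested, and in bulk RNA fewer cells with a transcript and less of it per cell cannot be told apart.

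The 7 LINC genes that passed the test in G12V cells are the ones that carry the comparison, and the sequences around the starts of 4 of them are shown because they differ so plainly in make-up. Each runs from 250 bases before the start in the count table to 49 bases after it, 5′ to 3′ on the gene's strand, from the GRCh37 (hg19) genome, and capitals mark a match to TGANTCA, the letters bound by AP-1 factors downstream of Ras. The stretch of LINC00460 lies at chr13:107028661-107028960 on the plus strand, that of LINC01137 at chr1:37939995-37940294 on the minus strand, that of LINC01503 at chr9:132098952-132099251 on the plus strand and that of LINC01468 at chr10:54230244-54230543 on the minus strand.
LINC00460: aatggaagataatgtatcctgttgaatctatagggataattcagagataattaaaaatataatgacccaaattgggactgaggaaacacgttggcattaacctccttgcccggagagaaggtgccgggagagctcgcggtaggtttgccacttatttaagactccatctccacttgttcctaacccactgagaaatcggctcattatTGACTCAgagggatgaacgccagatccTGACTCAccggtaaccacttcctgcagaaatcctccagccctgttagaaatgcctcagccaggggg
LINC01137: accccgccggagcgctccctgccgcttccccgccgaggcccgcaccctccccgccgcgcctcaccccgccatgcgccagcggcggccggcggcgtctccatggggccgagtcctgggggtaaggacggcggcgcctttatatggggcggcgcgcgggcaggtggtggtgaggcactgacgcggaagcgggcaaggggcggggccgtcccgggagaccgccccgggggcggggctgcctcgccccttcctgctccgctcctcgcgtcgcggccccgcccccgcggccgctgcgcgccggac
LINC01503: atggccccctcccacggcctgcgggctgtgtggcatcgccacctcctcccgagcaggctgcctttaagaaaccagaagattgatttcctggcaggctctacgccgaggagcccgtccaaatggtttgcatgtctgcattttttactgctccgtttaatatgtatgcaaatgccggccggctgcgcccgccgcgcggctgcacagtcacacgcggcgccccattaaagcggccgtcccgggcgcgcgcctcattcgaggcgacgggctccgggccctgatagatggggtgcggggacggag
LINC01468: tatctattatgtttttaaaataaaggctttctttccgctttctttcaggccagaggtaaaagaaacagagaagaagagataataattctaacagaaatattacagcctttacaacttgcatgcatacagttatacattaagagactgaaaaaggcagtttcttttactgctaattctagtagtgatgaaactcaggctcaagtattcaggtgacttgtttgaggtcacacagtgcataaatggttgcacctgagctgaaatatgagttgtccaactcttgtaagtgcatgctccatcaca
LINC00460 holds 2 AP-1 letters, which begin 43 and 16 bases before its start. The LINC01137 stretch is 80.7% G or C, against 46.7% for LINC00460, 64.0% for LINC01503 and 36.0% for LINC01468.

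Expressed LINC genes were a small and scarce part of these transcriptomes. Together they took 0.128% to 0.140% of the counts in the first table and 0.0645% to 0.0809% in the second. Their median level was 1.41 CPM in the first table, against 25.2 CPM over all tested genes, and 3.22 against 27.1 CPM in the second. A single gene, LINC00657, held 21.4% to 39.7% of the members' counts in the first table and 23.4% to 28.5% in the second. LINC00657, also called NORAD, is a cytoplasmic RNA that binds Pumilio proteins and guards genome stability.

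Levels between genes were compared as CPM per kb of merged GENCODE exons. These lengths were not taken from the annotations that were counted, so the orders below hold for that length only. Levels per kb were given only for members that GENCODE lists as long non-coding RNA, 149 in the first table and 55 in the second. Members of any other type, protein-coding included, were not ranked, whatever their level. Among the ranked members, LINC00657 came first in MCF10A cells at 90.4 ± 23.9 CPM per kb (SD, n = 2). It was followed by LINC00707 at 10.3 ± 2.43, LINC00941 at 7.32 ± 2.54, LINC00294 at 7.00 ± 1.31 and LINC00997 at 5.80 ± 0.71 CPM per kb. The lead of LINC00657 exceeded the spread. LINC00941 and LINC00294 lay within each other's SD, and the interval of 1 SD around LINC00707 overlapped those around both. DMSO cells had LINC00657 first at 34.7 ± 3.51 CPM per kb (SD, n = 3) and LINC00707 second at 10.8 ± 3.33, ahead of LINC00888 at 7.23 ± 1.30 and LINC00641 at 5.08 ± 1.58 CPM per kb. The intervals of 1 SD around LINC00888 and LINC00641 overlapped. LINC00460, lower at 3.63 ± 0.107 CPM per kb with DMSO, was divided by 4232 exonic bases. Its counted row spans only chr13:107028911-107030565, so that length is too long for it and its place is not settled.

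**Figure D1:**
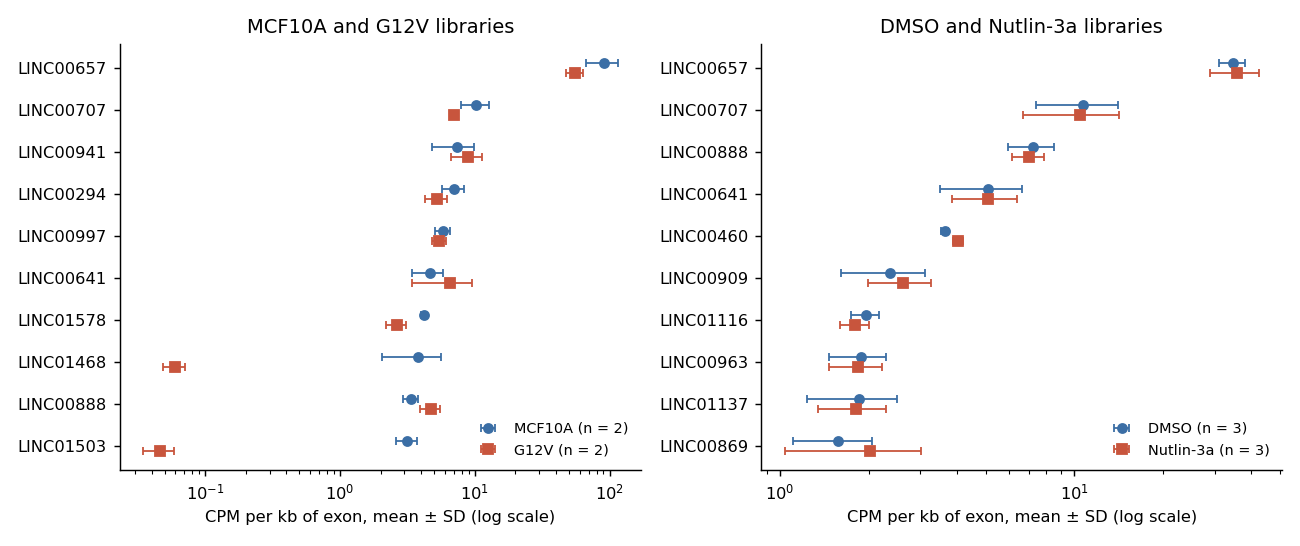
CPM per kb of exon on a log axis for the 10 LINC genes with the highest level per length in MCF10A (left) and in DMSO (right), with the mean and SD of each group, 2 libraries on the left and 3 on the right. Only members that GENCODE lists as long non-coding RNA are ranked. Lengths are those of GENCODE exons and can exceed the counted row, as for LINC00460. LINC00657 leads in all 4 groups, and LINC01468 and LINC01503 are the 2 whose G12V level is far to the left of their MCF10A level.

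In G12V cells, 4 LINC genes rose and 3 fell among 176 tested. LINC00460, LINC01137, LINC01537 and LINC00173 were higher, and LINC01503, LINC01468 and LINC00842 were lower. A call required a Benjamini-Hochberg adjusted p under 0.05 over all genes by the quasi-likelihood test of edgeR and an absolute log2 fold change above 0.5. By this rule 2.27% of tested LINC genes were higher and 1.70% lower, where 5.01% and 5.95% of all 14376 tested genes were. In either direction the shares were 3.98% of LINC genes and 11.0% of all genes. With the library number added to the model as a block, 31 of 176 LINC genes, the 7 above among them, and 4158 of 14376 genes were called. LINC genes have larger errors, with a median standard error of 0.422 on the log2 scale against 0.277. Split by level, 6 of 155 LINC genes under a mean of 10 CPM were called, where 13.9% of all genes at that level were, and 1 of 21 at 10 CPM or more, where 9.48% were. LINC00852, at 40 counts, was the member left untested by the filter on low counts.

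Without the first MCF10A library no gene in the whole table passed, LINC or other, with a smallest adjusted p of 0.0502, although 17 of 177 LINC genes and 2830 of 14883 genes had an unadjusted p under 0.05. Over the fits that left out 1 library the log2 fold change ran from -6.33 to -5.82 for LINC01503, from -6.37 to -5.37 for LINC01468 and from 3.11 to 7.26 for LINC00173. The 7 calls kept their direction in each fit that left out 1 library. Without the second MCF10A library LINC00173 (adjusted p = 0.128) and LINC01537 (adjusted p = 0.0534) were no longer called, and the other 5 were.

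LINC01503 and LINC01468 had the lowest fold changes, which differed by less than their standard errors. The counts of LINC01503 were 284 and 376 in the MCF10A libraries and 6 and 4 in the G12V libraries, so the groups lay far apart. That is 14.7 ± 2.58 CPM against 0.217 ± 0.055 CPM (SD, n = 2), and the log2 fold change was -6.04 with a standard error of 0.42 (adjusted p = 0.00138). The gene lies at chr9:132099202-132109756 on the plus strand, and its nearest tested protein-coding gene, IER5L of the immediate early response family, is 158662 bases away with a log2 fold change of -0.44 and an adjusted p of 0.463.

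LINC01468 had 367 and 192 counts in MCF10A and 4 and 5 in G12V, at chr10:54210637-54230293 on the minus strand. Its level went from 12.6 ± 5.82 to 0.197 ± 0.037 CPM (log2 fold change -5.96, standard error 0.56, adjusted p = 0.00334). The MCF10A libraries differed from each other by far less than they differed from both G12V libraries. The nearest tested protein-coding gene is DKK1, a secreted inhibitor of Wnt signalling, 133220 bases away. DKK1 had 249 and 215 CPM in MCF10A and 125 and 63.2 CPM in G12V, without overlap, and a log2 fold change of -1.30 that missed the threshold (adjusted p = 0.0659).

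LINC00842 had 301 and 297 counts in MCF10A and 6 and 8 in G12V, at chr10:47096454-47151400 on the minus strand. The level was 13.4 ± 0.42 against 0.307 ± 0.071 CPM (log2 fold change -5.43, standard error 0.38, adjusted p = 0.00141). The pseudogene HNRNPA1P33 lies inside it on the same strand and fell by 5.21 on the log2 scale, from 274 and 130 counts to 6 and 5. ANXA8, a calcium-dependent membrane-binding annexin, lies 6584 bases away and had 55 and 49 counts in MCF10A and 0 in both G12V libraries. Against a floor of 3 counts per library it was at least 17.8-fold lower, and it was called. This stretch of chromosome 10 holds near-identical copies of ANXA8 and its neighbours, so counts of LINC00842, HNRNPA1P33 and ANXA8 are uncertain, and those of the first pair are not independent.

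LINC00460 was the most abundant of the genes that rose. It had 100 and 60 counts in MCF10A and 779 and 969 in G12V, and lies at chr13:107028911-107030142 on the plus strand. Its level went from 3.59 ± 1.35 to 38.3 ± 7.01 CPM, 10.6-fold on the fitted scale (log2 fold change 3.41, standard error 0.35, adjusted p = 0.00428). It is the called gene whose start carries the AP-1 letters in the sequence above. EFNB2, an ephrin ligand and the nearest tested protein-coding gene at 111937 bases, had a log2 fold change of 0.52 with an adjusted p of 0.443.

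LINC01137 rose together with the protein-coding gene that shares its promoter region. It had 35 and 41 counts in MCF10A and 202 and 304 in G12V, from 1.70 ± 0.15 to 11.1 ± 3.48 CPM (log2 fold change 2.70, standard error 0.37, adjusted p = 0.00965). The gene lies at chr1:37920480-37940044 on the minus strand, and ZC3H12A, which encodes an RNase that degrades messages of inflammatory genes, starts 75 bases away on the other strand. ZC3H12A had 19.8 and 19.9 CPM in MCF10A and 205 and 188 CPM in G12V, a log2 fold change of 3.31 with a standard error of 0.18 (adjusted p = 0.000788). Both G12V libraries were above both MCF10A libraries for each gene of the pair. The library kit does not mark strand, so reads where such transcripts overlap cannot be assigned to one of them.

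LINC01537 and LINC00173 were nearly absent from MCF10A. LINC01537, at chr11:72281700-72284266 on the plus strand, had 1 and 1 counts in MCF10A and 19 and 26 in G12V, a ratio of 22.0 with a 95% counting interval of 5.74 to 187 (adjusted p = 0.0122). Its neighbour at 2918 bases on the other strand is PDE2A, a phosphodiesterase that breaks down cyclic nucleotides. PDE2A had 5 and 7 counts in MCF10A and 14 and 53 in G12V (log2 fold change 2.44, adjusted p = 0.111). LINC00173, at chr12:116971240-116974318 on the plus strand, had 2 and 0 counts in MCF10A and 18 and 20 in G12V, a ratio of 18.5 with an interval of 4.79 to 159 (adjusted p = 0.0341). LINC00173 lost its call without a filter on low counts (adjusted p = 0.0517), both genes lost theirs when the first or the second MCF10A library was left out, and both fell below a filter of 1 CPM. Over the other fits and those that left out 1 library, the adjusted p ran from 3.82e-05 to 0.128 for LINC00173 and from 7.16e-06 to 0.141 for LINC01537. These intervals hold counting error alone, because amplified reads do not each stand for a separate molecule. MAP1LC3B2, of the LC3 family of autophagy proteins, is the nearest protein-coding gene of LINC00173 and had a log2 fold change of -0.32 (adjusted p = 0.706).

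**Figure D2:**
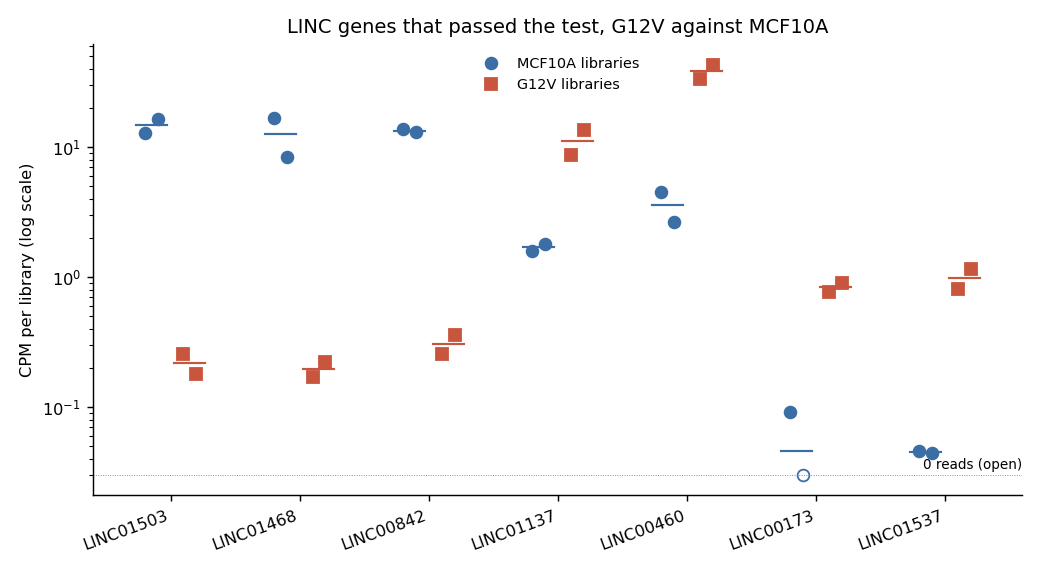
CPM per library on a log axis for the 7 LINC genes that passed the test, with circles for the 2 MCF10A libraries, squares for the 2 G12V libraries and a line at each mean. The open circle is the MCF10A library with 0 reads of LINC00173, drawn at the bottom, and no gene has overlapping groups.

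The count minimum itself favours genes that are high in one group. At the level of their lower group, 26 members, 5 of the 7 called ones among them, would not have met it, and LINC00460 and LINC01137 were the called genes that would. LINC00173 stood exactly at the minimum of 40 counts with LINC00483, LINC00852 and LINC00971, and LINC00933 stood just outside at 39. In the second table LINC00342 and LINC00638 stood just inside at 64 counts, and LINC00659 and LINC00854 just outside at 58.

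Across all 176 tested LINC genes the shift was small. Above 0 lay 98 genes and below 0 lay 78, and the median log2 fold change was 0.12 beside -0.0011 over all tested genes. Without the first G12V library that median was -0.06. The median size of the change was 0.41 for LINC genes and 0.36 for all genes, and 28 LINC genes, or 15.9%, changed by over 1 on the log2 scale, beside 17.7% of all genes. Groups did not overlap in 97 LINC genes, or 55.1%, where 54.8% of all genes had no overlap. An unadjusted p under 0.05 was found in 31 LINC genes, 17 of them higher, which is 17.6% beside 25.6% of all genes.

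**Figure D3:**
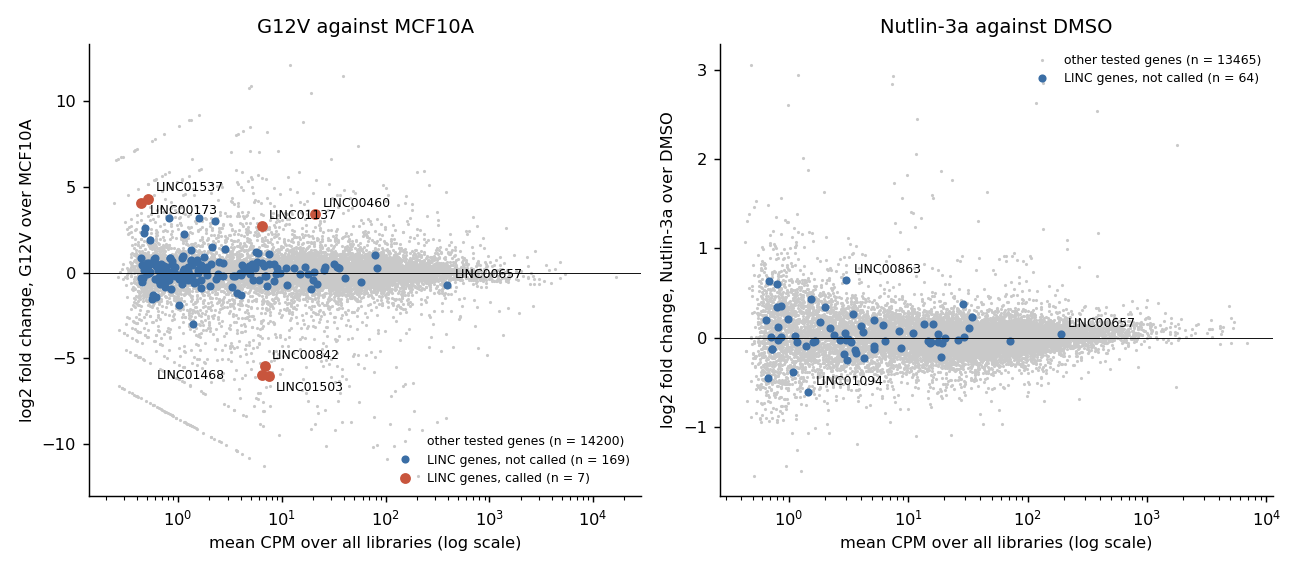
Log2 fold change against the mean CPM over all libraries (log axis) for G12V against MCF10A (left) and Nutlin-3a against DMSO (right), with all other tested genes in grey, LINC genes in blue and called LINC genes in red. LINC genes gather at the low end of the level axis, 7 are called on the left and none on the right.

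Of 25 LINC genes studied in tumour or stem cells, 19 were members, 1 was called higher (LINC00460) and 1 lower (LINC01503), beside 11.0% of all genes called in either direction. An unadjusted p under 0.05 was found in 11 of the 19, beside 25.6% of all genes, and 10 lay above 0, at a median log2 fold change of 0.27. The list was chosen with results of these libraries known. LINC00657 had 397 and 580 CPM in MCF10A and 267 and 328 CPM in G12V, lower without overlap, with a log2 fold change of -0.72 and an adjusted p of 0.158. LINC00707 had 80.7 and 57.6 CPM against 45.9 and 48.0 CPM (log2 fold change -0.56, adjusted p = 0.181). LINC00673 had 24.5 and 26.5 CPM against 16.6 and 9.50 CPM (-0.97, adjusted p = 0.116). The groups of these 3 genes did not overlap, as in 54.8% of all genes. LINC-ROR, known for its part in reprogramming to stem cells, had 5.86 and 3.83 CPM in MCF10A and 8.08 and 12.6 CPM in G12V, a log2 fold change of 1.09 with an adjusted p of 0.133. LINC00152, also called CYTOR, was at 12.3 and 11.3 CPM against 12.9 and 15.7 CPM, a log2 fold change of 0.27 with a standard error of 0.25.

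Others closest to the threshold were mostly higher in G12V. LINC00659 had 3 and 3 counts against 13 and 25, a ratio of 6.18 with a counting interval of 2.59 to 17.9 and an adjusted p of 0.0525. LINC00601 had 6 and 12 counts against 60 and 27 (adjusted p = 0.0686), and LINC00887 had 12 and 10 against 33 and 148 (adjusted p = 0.0702). For the last gene the G12V libraries lay far apart from each other. LINC00467 had 84 and 82 counts against 161 and 205 (log2 fold change 1.11, adjusted p = 0.0839). LINC01057, an abundant member, had 62.1 and 42.7 CPM against 82.3 and 128 CPM (log2 fold change 1.00, adjusted p = 0.0874). LINC00324 was the lowest of those not called, with 24 and 88 counts in MCF10A and 2 and 12 in G12V (log2 fold change -2.99, adjusted p = 0.101). LINC00659, LINC00601, LINC00887 and LINC01057 were singled out after their values were seen.

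Within 100 kb, 132 tested LINC genes had a tested protein-coding gene, and 82 of these pairs, or 62.1%, changed in the same direction. Those include LINC00889 with FGF13, LINC00341 with SYNE3 and LINC01279 with CCDC80. RefSeq now lists each of these LINC genes under that same neighbour, so they are not pairs of distinct genes. Among protein-coding genes and their own nearest protein-coding neighbours within that distance, the share was 54.9% of 11600. At 50 kb and 500 kb the LINC shares were 62.3% and 60.6%, beside 55.1% and 54.7%. Pairs share libraries and chromosomal surroundings and are not independent, so these shares are a description. Of the 7 called genes, 4 had a neighbour within 100 kb, and 3 of the 4 pairs had the same sign.

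The neighbour itself was called for 17 of the 132 genes, or 12.9%, beside 11.0% of all genes, with 10 neighbours higher and 7 lower. In 13 of these 17 the LINC gene lay on the same side of 0, and in 2, LINC01137 with ZC3H12A and LINC00842 with ANXA8, it was called too. The pairs named next were chosen after their values were seen. LINC00889, 13935 bases from FGF13 on the same strand and now listed under FGF13 in RefSeq, had 6 and 1 counts in MCF10A and 19 and 17 in G12V, while FGF13, a fibroblast growth factor that stays inside the cell, rose from 0.469 ± 0.021 to 22.5 ± 4.99 CPM. LINC00601 lies 3126 bases from C10orf90 on the same strand, and C10orf90 rose from 0.180 ± 0.131 to 7.19 ± 5.25 CPM. By contrast LINC00547 had a log2 fold change of 0.71 beside POSTN, which encodes the matrix protein periostin and fell by 8.28. LINC00921 had -0.56 beside MEFV, which encodes the inflammasome protein pyrin and rose by 5.12.

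**Figure D4:**
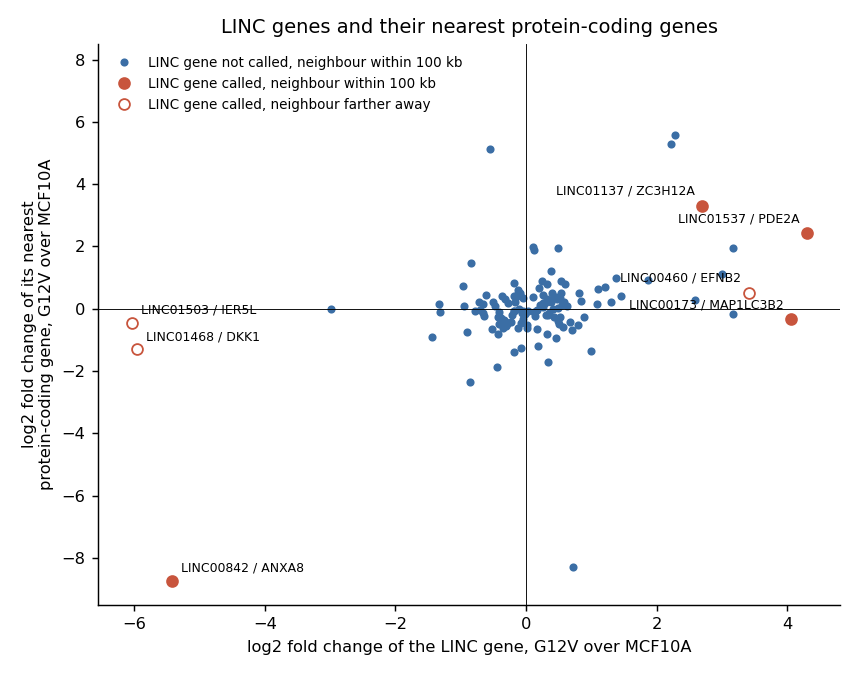
Log2 fold change of the nearest tested protein-coding gene against that of the LINC gene, G12V over MCF10A, for pairs within 100 kb (filled) and for called LINC genes whose neighbour is farther away (open). Of the 132 pairs within 100 kb, 82 lie in the upper right or lower left, and the 7 called LINC genes are named with their neighbours.

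Some LINC genes start close to a gene on the opposite strand, facing away from it or, as LINC00167 with PRDM10, with overlapping starts. With starts at most 1000 bases apart there were 15 pairs with a protein-coding gene, of which 8 had the same sign, or 53.3%, and ZC3H12A was the one partner that was called. LINC01057 and SLC44A3, a transporter-like gene 61 bases away, had opposite signs, 1.00 and -1.35, and neither passed. LINC-PINT, a p53-induced RNA 180 bases from MKLN1, had a log2 fold change of 0.40 beside 0.51, with standard errors of 0.39 and 0.22. LINC01136, 211 bases from the p53 target BTG2, had -0.31 beside -0.55, each smaller than its standard error of 0.49 and 0.72. The pair LINC01116 and LINC01117, whose starts are 180 bases apart, had -1.17 and -1.53, each without overlap of the groups, and adjusted p of 0.122 and 0.110.

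The letters TGANTCA occurred, on either strand, within the same 300 bases of 24 LINC genes, or 13.6% of 176, and of 5.12% of all 14375 windows. TGANTCA reads as itself on the other strand, so each site matched on both and was counted once. LINC windows were less rich in G and C than all windows, at a median of 54.8% against 63.3%, and no correction for this was made. Of the 24 genes, 15 lay above 0 in G12V, or 62.5%, their median log2 fold change was 0.17, and 1 was called. Of the 152 without the letters, 83 lay above 0, or 54.6%, with a median of 0.11, and 6 were called. Over all tested genes 11.0% were called. The letters TGACGTCA, bound by CREB, occurred in 1.70% of LINC windows and 2.84% of all, and the ETS letters CCGGAAGT in 4.55% and 7.07%. The p53 response element, sought as an exact match to its full consensus, was found in no LINC window and in 3 of 14375 windows, or 0.0209%. With so rare a match, its absence from LINC windows says little about p53 sites. A match is a description of these letters only.

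RefSeq now lists 15 of the 177 genes as protein-coding, 161 as long non-coding RNA and 1 as a transcribed pseudogene. None of the 15 was called by edgeR's quasi-likelihood test or by DESeq2, 2 were called by the exact test, and 4 had an unadjusted p under 0.05, beside 11.0% of all genes called and 25.6% with such a p. Their levels ran from under 1 CPM, as for LINC01207, now SMIM31, at 0.695 CPM in MCF10A and 0.803 CPM in G12V, up to those of LINC00998. LINC00998, now SMIM30, had 33.4 and 32.2 CPM in MCF10A and 34.3 and 43.2 CPM in G12V. LINC00493, now SMIM26, had 21.6 and 24.7 against 23.2 and 34.5 CPM, and LINC00116, now MTLN, which encodes a microprotein of mitochondria, had 15.9 and 14.2 against 16.9 and 20.7 CPM. The changes of these 3 were between 0.24 and 0.32 on the log2 scale with adjusted p of at least 0.484. LINC01420, now NBDY, which encodes a microprotein of the mRNA decapping machinery, was at 18.9 and 22.3 against 18.5 and 22.8 CPM, a log2 fold change of 0.01 with a standard error of 0.24, whose sign turned in other fits. Larger but not called were LINC00341, now SYNE3, at 1.38 and LINC01279, now CCDC80, at -1.31, each now listed under a longer protein-coding gene.

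RNAs with other names that were described as long non-coding gave a point of comparison. Unlike for the LINC genes, their present RefSeq class was not checked, and some may now be listed as protein-coding. Of 20 named ones, 15 were tested and 2 fell, H19 with a log2 fold change of -3.11 and TINCR with -3.23, beside 11.0% of all genes called. TINCR is known for epidermal differentiation and H19 is an imprinted RNA. MALAT1, NEAT1, TUG1 and GAS5 were not called.

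After 4 h of Nutlin-3a none of the 64 tested LINC genes passed the test. Over all genes 0.170% of 13529 passed, which is 23 genes, and these included the p53 targets CDKN1A at a log2 fold change of 2.16 and MDM2 at 2.54. An unadjusted p under 0.05 was found in 1 LINC gene, or 1.56%, beside 3.42% of all genes, and DESeq2 and edgeR's exact test also called 0. With the library number as a block, which pairs DMSO and Nutlin-3a libraries, 1.22% of all genes passed and still no LINC gene, with 3 of them at an unadjusted p under 0.05 and a smallest adjusted p of 0.130. The largest changes were 0.64 and -0.61 on the log2 scale, and the median standard error was 0.272, beside the change of 2.16 in CDKN1A. The change of 0.64, in LINC00863, had a standard error of 0.22 and did not pass. Changes well above their error could thus also go undetected at this depth.

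LINC00863 had the smallest p. Its counts were 46, 40 and 36 with DMSO and 66, 62 and 48 with Nutlin-3a, or 2.37 ± 0.23 against 3.69 ± 0.47 CPM (SD, n = 3), and the groups did not overlap. The log2 fold change was 0.64 with a standard error of 0.22 (edgeR adjusted p = 0.9997, and 0.130 with the block). LINC01094 went the other way, with 2.16, 1.47 and 1.63 CPM against 1.42, 1.30 and 0.724 CPM (log2 fold change -0.61, standard error 0.33, adjusted p = 0.399 with the block). LINC00511 had 21.0, 19.3 and 20.6 CPM against 16.6, 18.2 and 17.5 CPM, a log2 fold change of -0.22 without overlap. Together with LINC00630 at -0.39 and LINC00460 at 0.15 these made 5 genes without overlap between groups, or 7.81%, where 8.07% of all genes had none. LINC00493, now SMIM26, had 30.0, 30.7 and 34.1 CPM against 29.7, 37.1 and 44.2 CPM, with overlap, at 0.23. LINC00672 at -0.45 and LINC00984 at -0.23, both now listed as protein-coding, were next among those below 0 and also overlapped.

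Among the 25 studied LINC genes 15 were members here, none of which had an unadjusted p under 0.05, and RNAs known as p53 targets were scarce. LINC-PINT had 28, 25 and 15 counts with DMSO and 32, 31 and 22 with Nutlin-3a, with overlapping groups, and a log2 fold change of 0.43 with a standard error of 0.31. LINC01021, also called PURPL, had 9 counts over the 6 libraries and 11 over the 4 of the first table, under the minimum in both. LINC01136, beside BTG2, was under the minimum in the second table. LINC-ROR was at 0.867 CPM with DMSO and 0.863 CPM with Nutlin-3a.

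Among the abundant members, LINC00657 had a log2 fold change of 0.04 and LINC00707 of -0.04, and LINC00116 had 23.7, 23.4 and 28.4 CPM against 24.0, 34.0 and 39.8 CPM, higher in each of the 3 numbered pairs. Its log2 fold change was 0.37 with a standard error of 0.19, and 0.35 with a standard error of 0.11 with the block, where the adjusted p was 0.177. Of the 64 genes 32 lay above 0 and 32 below, and their median was -0.0025 beside 0.0066 over all genes. The median size was 0.114 for LINC genes and 0.101 for all genes, and none changed by over 1, as did 0.584% of all genes. Nearest protein-coding genes within 100 kb had the same sign in 23 of 50 pairs, or 46.0%, beside 52.1% among protein-coding genes.

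**Figure D5:**
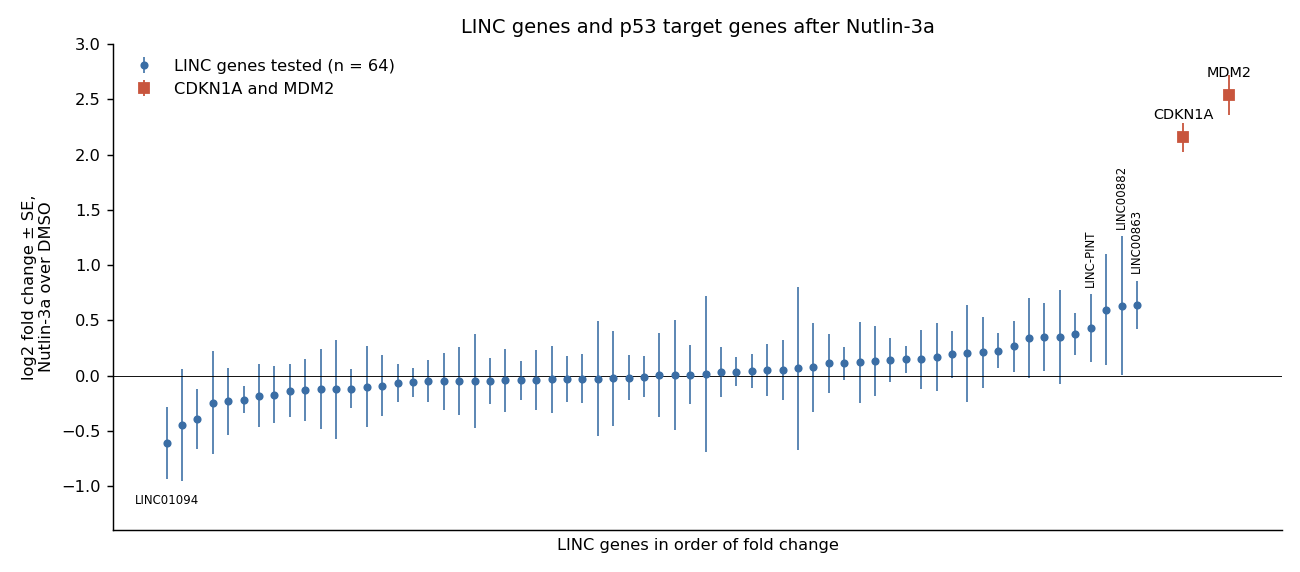
Log2 fold change of Nutlin-3a over DMSO with its standard error for the 64 tested LINC genes in order of size, and for CDKN1A and MDM2 at the right. The LINC genes run from -0.61 to 0.64, while CDKN1A is at 2.16 and MDM2 at 2.54.

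The genes that changed in G12V cells were measured in the second experiment as well, where all libraries are of MCF10A cells without the oncogene. LINC00460 had 15.7, 14.9 and 15.5 CPM with DMSO and 16.4, 17.7 and 16.9 CPM with Nutlin-3a (log2 fold change 0.15, standard error 0.12). LINC01137 was at 6.44 ± 2.18 and 6.29 ± 1.63 CPM, and LINC00842 at 5.86 ± 0.72 and 6.44 ± 0.98 CPM. LINC00173 had 0 counts in 6 of 6 libraries. LINC01503, LINC01468 and LINC01537 have no row of their name there, but rows with clone names overlap their loci on the same strand. The row at LINC01503 overlaps it by 5635 bases, or 53.4% of the shorter span, and those at LINC01468 and LINC01537 by at least 99.8%. The row at LINC01503 was at 16.5 ± 4.56 and 18.9 ± 5.90 CPM, that at LINC01468 at 7.49 ± 2.16 and 8.12 ± 3.96 CPM, and that at LINC01537 had 0 to 6 counts per library. Reads at the locus of LINC01468 were thus found in MCF10A cells of both experiments, while for LINC01503 this holds only for the part that the other row shares. The row of LINC00842 is longer in the second table, at chr10:47011753-47174018, and overlaps ANXA8L1 there by 16036 bases on the same strand. Its reads may therefore lie outside the span counted in the first table. LINC00173 and LINC01537 were scarce in MCF10A cells of both experiments.

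Levels did not carry over exactly between the tables, which come from separate experiments, rest on different annotations and were scaled separately. The part of each was not tested. Among protein-coding genes, TP63 was at 167 CPM in MCF10A and 22.3 CPM with DMSO, while HRAS was at 69.3 and 96.3 CPM. Over the 51 genes tested in both, the Spearman correlation of the levels in MCF10A and DMSO was 0.713, as a description, and 20 genes were over 2-fold apart. LINC00460 was at 3.59 CPM in MCF10A and 15.4 CPM with DMSO, LINC01137 at 1.70 and 6.44 CPM, and LINC00674 at 74.9 and 3.12 CPM. The G12V level of LINC00460, 38.3 CPM, was above both of its levels without the oncogene. For LINC01137 the separation was narrower, with 8.64 and 13.6 CPM in the G12V libraries and 8.63 CPM in the highest DMSO library.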

How the data were processed

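Poly(A) RNA with a RIN above 9 was sequenced in MCF10A and G12V cells (2 libraries each) and in DMSO and Nutlin-3a treated MCF10A cells (3 each). The authors aligned reads to hg19 with TopHat and counted them per gene with HTSeq, and they deposited raw counts without normalization in 2 tables. The annotations, the strand setting and the handling of overlapping genes are not given in the sources used here. Starts in both tables count from 0 and were raised by 1.

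From the counts, each table was modelled separately in edgeR 4.0.16 under R 4.3.3 (limma 3.58.1), using filterByExpr, TMM factors, the quasi-likelihood F-test and Benjamini-Hochberg adjustment. The prior count was 0.125, and a standard error is the size of the log2 fold change divided by the root of F. The scripts were tested on simulated data. RefSeq classes were matched by symbol for 136 and by synonym for 41 members of the first table (40 and 25 in the second). Exon lengths come from GENCODE lifted to GRCh37 and can differ from the rows that were counted. Intervals are exact 95% intervals for the ratio of summed counts and cover counting error only. Depths of 15453226 to 23683975 counts leave genes near the minimum with a few counts per library. Motifs were searched on both strands as TGANTCA, TGACGTCA and CCGGAAGT and as the full consensus of the p53 response element, without mismatches.

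Same-numbered DMSO and Nutlin-3a libraries deviated together from their group means (correlations of 0.641, 0.649 and 0.676 over genes, against -0.499 to -0.206 for other pairs), so the numbers pair them, and the blocked result is given beside the main one. The alternatives tried were DESeq2 1.42.0, the exact test of edgeR, relative log expression factors, library totals, other filters, a prior count of 2, a replicate block, leaving out each library, no minimum fold change and other count minimums and distances. The members, the lists and the named genes were chosen with earlier results of these data known. The rule names every called LINC gene, a list of studied LINC genes, those listed as protein-coding, the 5 smallest p in each direction after Nutlin-3a, genes next to the count minimum, and nearest protein-coding genes of called ones.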

Additional observations from a re-analysis of the deposited data

How the results depend on the processing

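Between MCF10A and G12V cells, the count of LINC genes higher and lower among 176 tested, 4 and 3 as reported, was 8 and 5 with DESeq2. It was 14 and 5 with edgeR's exact test (2536 of 14376 genes in all) and 18 and 13 with the replicate block (4158 of 14376 genes in all). The 7 reported calls were kept in these 3 fits. By DESeq2 an unadjusted p under 0.05 was found in 27 of 176 LINC genes and in 3476 of 14376 genes. Outside the fits that left out 1 library, all genes called ran from 1402 to 4158, beside 1575 in the main fit. Same-numbered libraries of this comparison also deviated together, with a correlation of deviations of 0.535, against -0.535 for the other pairs. With 2 libraries per group these values mirror each other and cannot settle whether the numbers pair the libraries, so both fits are given. A filter that asks for 2 libraries above 1 CPM left 2 higher, as did a mean of at least 1 CPM, and keeping only members that meet the minimum at their lower group left 2 higher and 0 lower. Those restrictions to members were added after seeing the data. Leaving out 1 library gave 0 to 12 higher and 0 to 6 lower, a median log2 fold change of -0.0572 to 0.182, and between 0 genes in all, without the first MCF10A library, and 2129, without the first G12V library, by edgeR with the lone sample taken to vary like the other group. The cause was not tested. After Nutlin-3a the members called were 0 in all fits, while all genes called were 23 as reported, 91 with DESeq2, 84 with the exact test, 99 without a filter, 165 with the replicate block and 7 to 11 without 1 library.

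Signs turned for genes near 0. In G12V cells LINC01420 was at -0.00101 with DESeq2 and -0.000958 with relative log expression factors, and leaving out 1 library gave -0.155 to 0.147 for it, -0.0266 to 0.728 for LINC00941, -0.00213 to 0.72 for LINC-PINT and -1.27 to 0.0174 for LINC00473. After Nutlin-3a, library totals alone gave -0.0294 for LINC-ROR, -8.49e-05 for LINC00094 and -0.0214 for LINC00341, and no filter gave -0.00526 for LINC-ROR. Leaving out 1 library there gave -0.2 to 0.46 for LINC-ROR, -0.0194 to 0.0845 for LINC00094, -0.125 to 0.0262 for LINC00152, -0.331 to 0.0884 for LINC00339, -0.692 to 0.852 for LINC00341, -0.176 to 0.354 for LINC00467, -0.0813 to 0.18 for LINC00657, -0.461 to 0.368 for LINC00704, -0.365 to 0.237 for LINC00707, -0.146 to 0.0377 for LINC00857, -0.168 to 0.138 for LINC00941, -0.181 to 0.135 for LINC00963, -0.51 to 0.0401 for LINC00984 and -0.756 to 1.16 for LINC01133. Of the called genes' nearest neighbours, 75% had the same sign within 100 kb and 85.7% within 500 kb.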
